A study of Lemna gibba with 6 samples.

Results

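The genes described here encode the enzymes that phosphorylate hexoses and carry them through glycolysis to pyruvate in the duckweed *Lemna gibba*. They were chosen by the enzyme name that the study's reaction table gives them: hexokinase, fructokinase, glucokinase, glucose-6-phosphate isomerase, phosphofructokinase, bisphosphate aldolase, fructose-bisphosphatase, triose-phosphate isomerase, glyceraldehyde-3-phosphate dehydrogenase, phosphoglycerate kinase, phosphoglycerate mutase, phosphopyruvate hydratase or pyruvate kinase. The names cover 59 genes, of which 56 of the 16340 genes in the deposited table are described here, in 11 enzyme families. The 3 genes without a row (LEMGIv51_A5_011334_1, LEMGIv51_A5_011335_1 and LEMGIv51_A5_019964_1) are pyruvate kinases. No gene carries the name glucokinase or, in that spelling, fructose-bisphosphatase, and the genes named fructose-1,6-bisphosphatase are given with the other genes of the pathway.

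Fronds of the single clone G3 7742a were grown axenically under continuous light in a medium with 5 g/L glucose. In the INS condition the nitrogen sources were 12.4 mM nitrate and 1.3 mM ammonium, and in the ONS condition these were replaced by 6.85 mM glutamine, the only nitrogen source there. Potassium phosphate and potassium chloride took the place of the nitrogen salts at matching concentrations, so the media also differed in added chloride. PolyA-selected RNA was sequenced from 3 biological replicates per condition. The comparison asks how transcripts of central metabolism differ when inorganic nitrogen is replaced by an amino acid, with glucose in both media.

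Glycolysis converts a hexose into 2 molecules of pyruvate. Hexokinase and fructokinase trap sugars taken up from the medium or released from sucrose as hexose phosphates. Hexokinase, fructokinase, phosphofructokinase and pyruvate kinase catalyze steps that are far from equilibrium, and most of the steps between them are reversible. In plants the pathway runs in the cytosol and, in part or whole, in plastids, with separate isozymes. Plastid aldolase, triose-phosphate isomerase, phosphoglycerate kinase and the NADP-dependent glyceraldehyde-3-phosphate dehydrogenase (GAPDH) A and B also serve the Calvin-Benson-Bassham cycle, so their transcripts are not those of glycolysis alone.

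The deposited table holds for each gene the mean of the normalized read counts in each condition (reads divided by a size factor that corrects for depth), with no value per library and no error. Whole reads per library were recovered from these means for 11377 genes, among them 23 of the 56 members, and only these have replicate values. All 23 have means under 1000, whereas 27 members have a mean of 1000 or more in a condition and could be compared by their means only. The same holds for 6 members with means under 1000, because their ONS means fit several combinations of whole reads. Recovered libraries are numbered within a condition from the deepest to the shallowest and carry no replicate number. Estimated depth was between 8324792 and 25856532 reads in the INS libraries and between 14443663 and 35807286 reads in the ONS libraries. Over 10286 genes, Spearman's rho between libraries was 0.909 to 0.967 within and 0.794 to 0.927 between conditions, and INS library 1 had the lowest values in both ranges. The 15 genes of RuBisCO, the carbon-fixing enzyme of green tissue, held 1.63% of all normalized reads under INS and 2.12% under ONS. In whole fronds, fewer cells of a type and less RNA per cell cannot be told apart. The study reports a larger share of dry weight in roots under ONS than under INS. Its bearing on the values given here was not tested. Reads are not divided by transcript length here, so a share of reads is not a share of transcripts.

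All 56 members had a mean of at least 10, from 22.7 to 62765 normalized reads in a condition. Together they held 1.32% of all normalized reads under INS and 1.51% under ONS, and 5 members took 61.6% and 61.0% of the members' reads. Genes whose annotation names a plastid enzyme (22 genes) held 72.3% of the members' reads under INS and 70.1% under ONS. Those named cytosolic (14 genes) held 14.4% and 15.2%, and the remaining 20 members carry no compartment in their names.

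The means of most members lay close together in the 2 conditions. Of the 56 members, 47 had means within 1.5-fold of each other. The mean under ONS was more than 1.5-fold higher for 4 members (7.14%), while 11.6% of all 15249 genes with a mean of at least 10 were past that fold in that direction. It was more than 1.5-fold lower for 5 members (8.93%), against 14.2% of all genes. The median log2 ratio of the means (ONS over INS) was 0.18 for the members and 0.04 for all genes, and the mean under ONS was the higher one for 36 of 56 members (64.3%) and for 53.6% of all genes. Among genes with a mean of at least 1000, the mean under ONS was the higher one for 19 of 27 members and for 50.6% of all 3627 genes, and 1 member was past 1.5-fold in each direction, against 6.34% of all genes higher and 11.3% lower.

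The ratios of the means varied along the pathway, which could not be tested. From GAPDH to pyruvate kinase, the 29 members had a median log2 ratio of 0.25, and 20 of them were higher under ONS. Their summed means were 138478 under INS and 172648 under ONS, a ratio of 1.25. From glucose-6-phosphate isomerase to triose-phosphate isomerase, the 16 members had a median log2 ratio of 0.03, and 9 of them were higher under ONS. Their sums were 98405 and 92224, a ratio of 0.937. Most of these sums, 62765 under INS and 55389.6 under ONS, came from the plastid aldolase LEMGIv51_A5_001529_1 alone, so the ratio mainly follows that gene. Among the families, the sum for enolase was 1.37 times as high under ONS as under INS. The ratio was 1.31 for phosphoglycerate kinase, 1.27 for fructokinase and 1.23 for GAPDH, whereas it was 0.821 for glucose-6-phosphate isomerase and 0.814 for hexokinase. For hexokinase and fructokinase together, the 11 members had a median log2 ratio of 0.20 and a ratio of sums of 1.07. The sums come from condition means and have no error, and a family's sum weights its members by their reads.

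**Figure D1:**
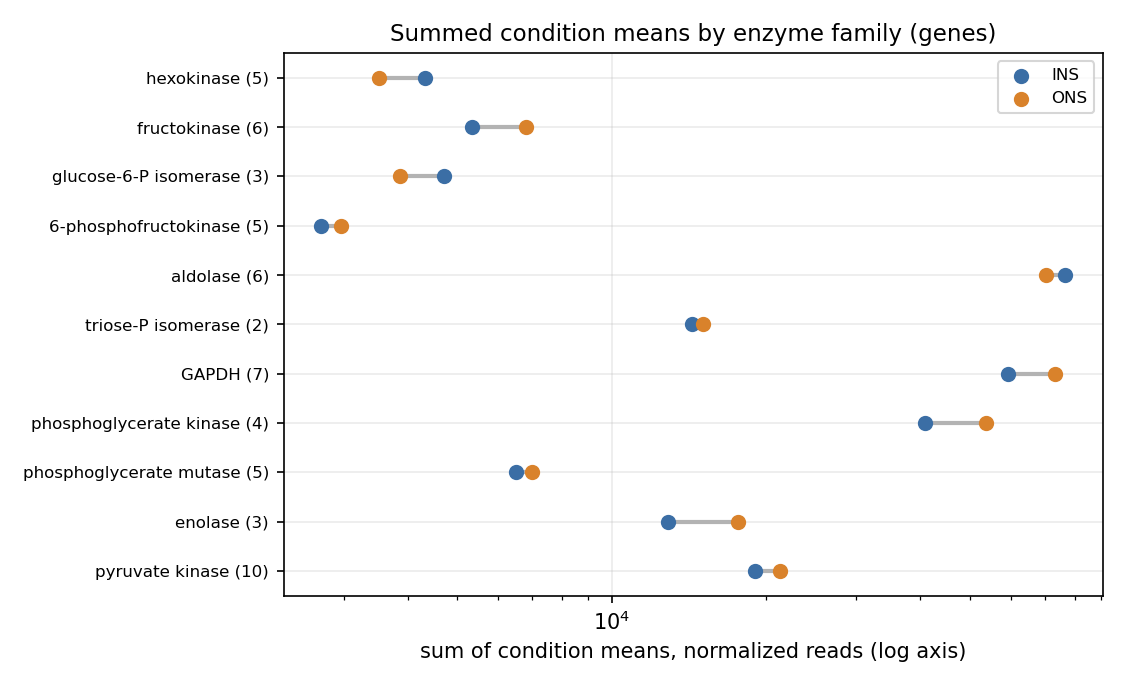
Sums of the condition means over the members of each enzyme family, in normalized reads on a log axis, for INS and ONS, in the order of the pathway with the number of genes in parentheses. The hexokinase, glucose-6-phosphate isomerase and aldolase sums were lower under ONS, and the other 8 sums were higher, with ratios of up to 1.37 for enolase.

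**Figure D2:**
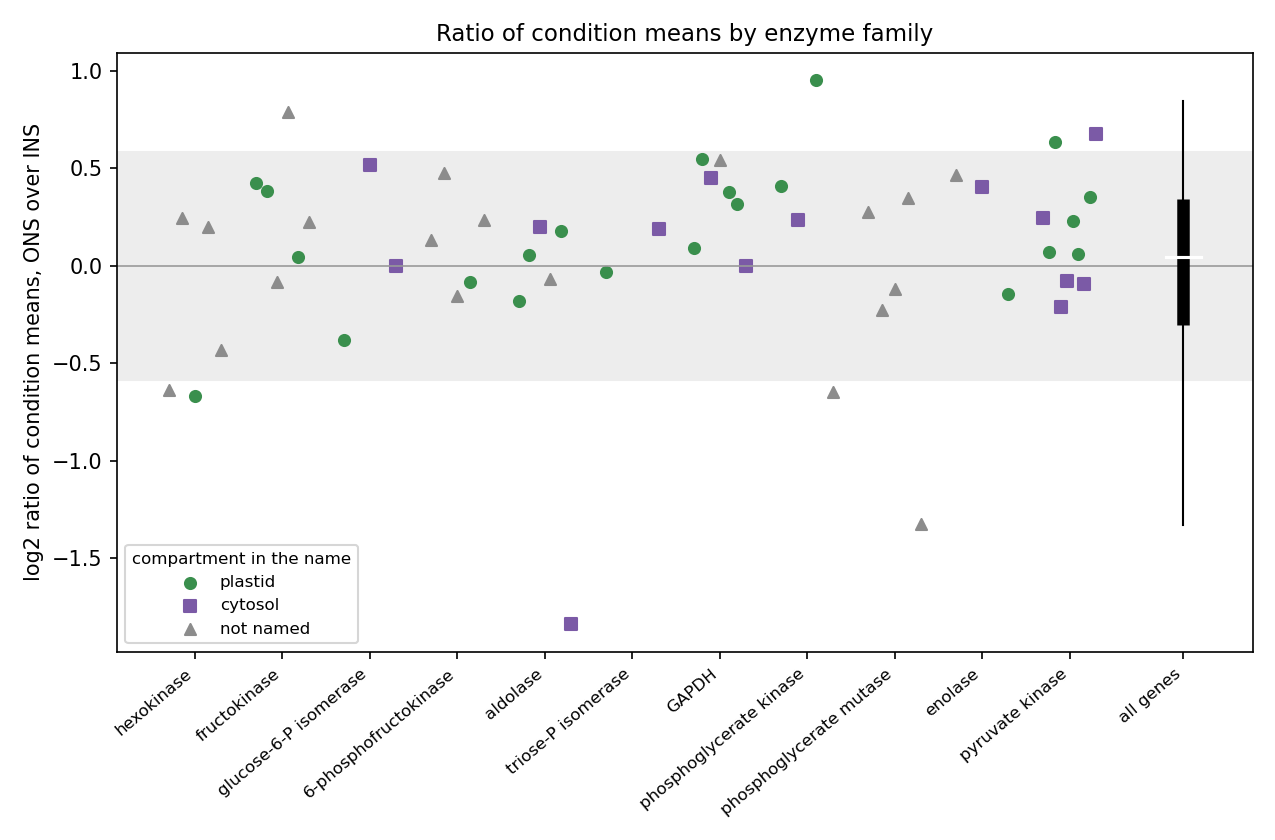
Log2 ratio of the condition means (ONS over INS) of each of the 56 members by enzyme family, with the compartment that the gene's annotation names. The grey band marks ratios within 1.5-fold, and at the right the line, bar and white mark show the 5th to 95th percentiles, the quartiles and the median of all genes with a mean of at least 10; 47 members lie in the band and the lowest is a cytosolic aldolase at -1.84.

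A test across libraries was possible for the 23 members with recovered reads. It was made with limma on log2(normalized reads + 1) across 10286 genes, with p-values adjusted over all of them by the Benjamini-Hochberg procedure. A gene was called where the adjusted p did not exceed 0.05 and the conditions differed by over 4-fold, the thresholds of the study. No member was called, and 2.74% of all tested genes were. Without the fold threshold 2 of 23 members (8.70%) passed, both lower under ONS, while 6.20% of all tested genes passed with 5.28% lower and 0.924% higher under ONS. An unadjusted p under 0.05 was found for 5 members (21.7%) and for 18.5% of all tested genes. The median log2 fold change of the tested members was -0.04, and that of all tested genes 0.05. The 95% intervals of the log2 fold change lay wholly within 4-fold for 22 of the 23 members and wholly within 2-fold for 12. The exception at 4-fold was the aldolase LEMGIv51_A5_003048_1.

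That gene, annotated as a cytosolic fructose-bisphosphate aldolase, the enzyme that splits fructose bisphosphate into 2 triose phosphates, fell under ONS. It had 142, 114 and 73.9 normalized reads in INS libraries 1, 2 and 3 and 36.2, 32.0 and 24.0 in ONS libraries 1, 2 and 3. Every INS library was above every ONS library, and these values rest on 33 to 197 recovered reads per INS library and 19 to 71 per ONS library. The log2 fold change was -1.77 with an SE of 0.35 and a 95% interval of -2.55 to -0.995 (limma, adjusted p = 0.0127). Leaving out INS library 2 raised the adjusted p to 0.0698, and over the 6 libraries left out in turn the log2 fold change was -2.03 to -1.57. Without INS library 3 the change exceeded 4-fold and the gene would be called. It received 0.143% of the aldolase reads under INS and 0.0437% under ONS.

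The second member that fell was LEMGIv51_A5_009134_1, listed with the phosphoglycerate mutases but annotated as a phosphoglycerate mutase-like protein (AT74). Whether it acts in glycolysis is not given by its name. Its normalized reads were 129.8, 80.4 and 94.1 in INS libraries 1, 2 and 3, and the ONS libraries had 40.2, 44.6 and 36.6, with no overlap between conditions. The log2 fold change was -1.28 with an SE of 0.32 (limma, adjusted p = 0.0359). The adjusted p no longer passed when any of the 6 libraries was left out, at 0.0757 to 0.109, while the log2 fold change stayed between -1.43 and -1.09.

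**Figure D3:**
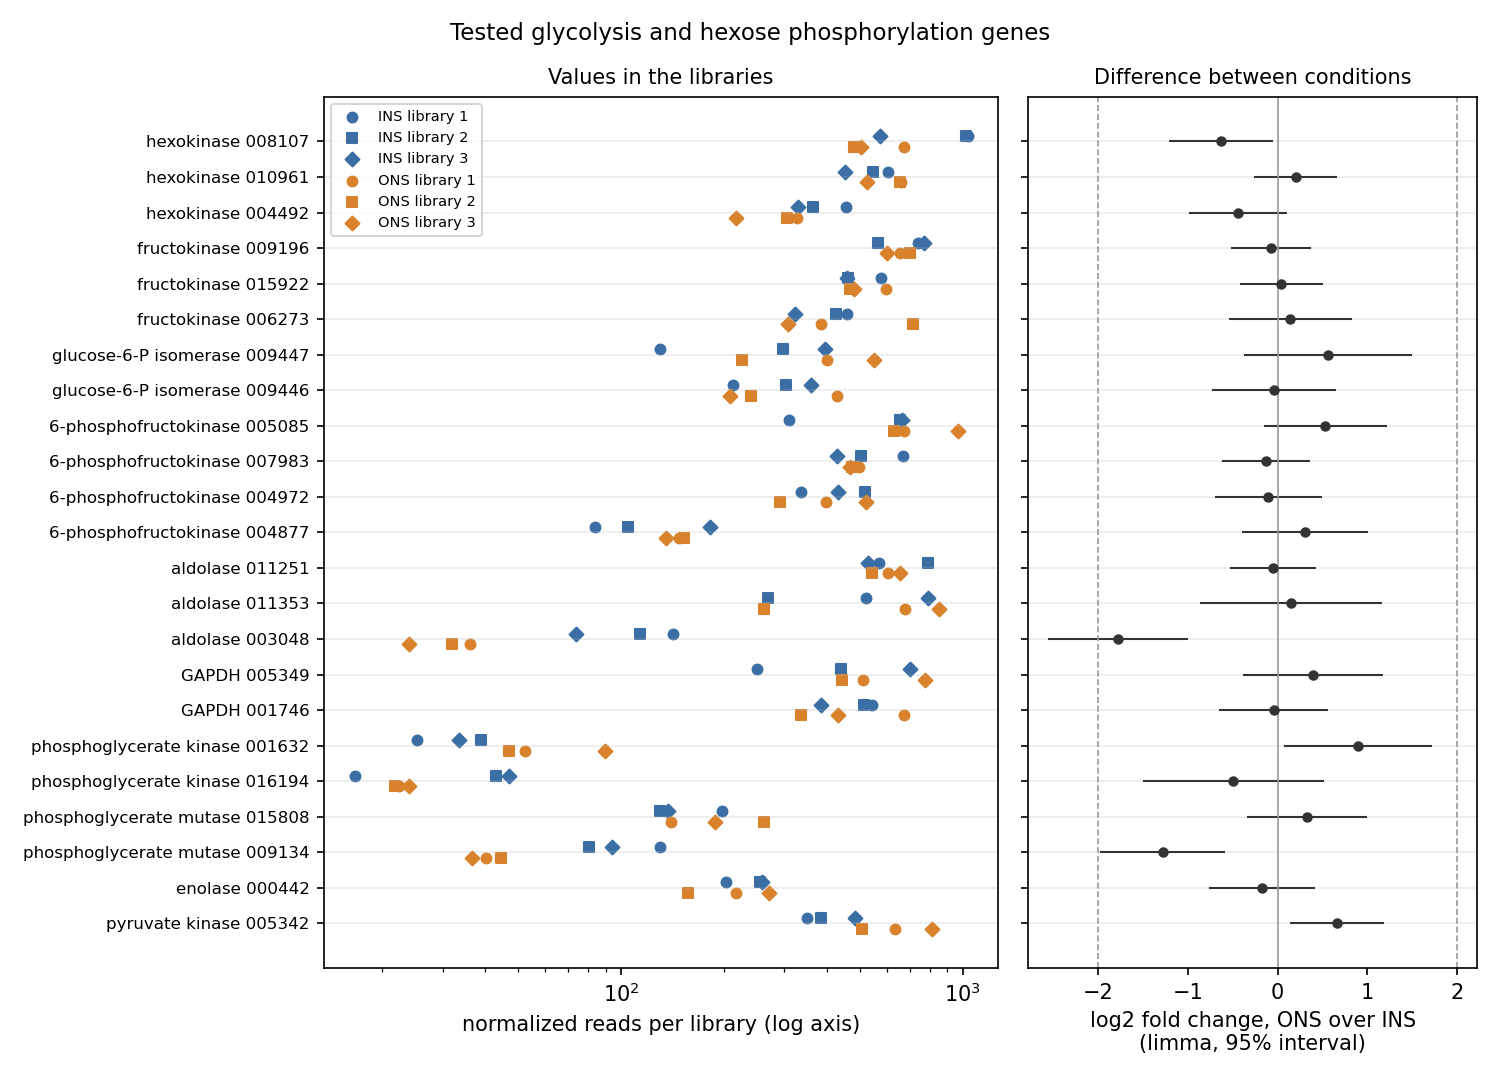
The 23 members with recovered reads, in pathway order. Left, normalized reads in each of the 3 INS and 3 ONS libraries on a log axis; right, limma log2 fold change (ONS over INS) with its 95% interval, with dashed lines at 4-fold. The aldolase LEMGIv51_A5_003048_1 and the phosphoglycerate mutase-like LEMGIv51_A5_009134_1 have all ONS points below all INS points and an adjusted p under 0.05, and most other members overlap between conditions.

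Libraries of the 2 conditions did not overlap for 5 of the 23 members, 2 higher and 3 lower under ONS. This share of 21.7% compares with 25.6% of all tested genes, 11.5% higher and 14.1% lower. A 2-sided exact permutation test of 3 against 3 libraries cannot go below p = 0.1. Within a condition, the highest library exceeded the lowest by a median of 1.54-fold under INS and 1.53-fold under ONS. The widest spread under ONS was that of the plastid aldolase LEMGIv51_A5_011353_1, with 521, 269.5 and 788 normalized reads under INS, compared with 676, 262 and 851 under ONS. Its spread within a condition was 2.93-fold and 3.25-fold, far above the 1.13-fold ratio of its means. INS library 1 was the lowest INS library for 10 and the highest for 10 of the 23 members, and ONS library 2 was the lowest ONS library for 13.

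Hexokinase catalyzes the first step of glucose use, and in plants such as *Arabidopsis* it also acts as a sugar sensor. Its 5 genes were split. LEMGIv51_A5_004804_1 (Hexokinase-3), with the highest mean of the family over all libraries, had means of 1714 under INS and 1104 under ONS, 1.55-fold lower under ONS, and no values per library. LEMGIv51_A5_008107_1 (Hexokinase-4, chloroplastic) had 1032, 1024 and 571 normalized reads under INS, compared with 674, 480 and 504 under ONS. The shallow INS library 3 lay among the ONS values, so the conditions overlapped, and the log2 fold change of -0.63 with an SE of 0.26 did not pass (limma, adjusted p = 0.230). When each library was left out in turn, the log2 fold change was -0.91 to -0.49 and the adjusted p 0.0590 to 0.464, so it passed in none of these fits. The means of LEMGIv51_A5_016030_1 (Hexokinase-1) were 814 and 965, with the higher one under ONS. The other two genes listed as hexokinases have names of other proteins in their annotation. LEMGIv51_A5_004492_1 (N-acetyl-D-glucosamine kinase) had 456, 364 and 329 normalized reads under INS, compared with 327, 307 and 217 under ONS, without overlap but with an adjusted p of 0.367 (limma). LEMGIv51_A5_010961_1 (Lactation elevated protein) had a log2 fold change of 0.20 with an SE of 0.21. Hexokinase-3 held 39.7% of the reads of the family under INS and 31.4% under ONS, and Hexokinase-1 held 18.8% and 27.4%.

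Fructokinase phosphorylates the fructose released from sucrose, and 5 of its 6 genes had the higher mean under ONS. LEMGIv51_A5_016795_1 (Fructokinase-2 of rice), an isozyme with no compartment in its name, had means of 492 under INS and 849 under ONS, a ratio of 1.73. Its INS libraries had 439, 528 and 508 normalized reads. The mean under ONS fits 2 combinations of whole reads, 1033, 786 and 727 or 229, 1007 and 1311 normalized reads, so the gene could not be tested. All ONS values lie above the INS values in the first combination and not in the second. LEMGIv51_A5_014747_1 had the highest mean of the family, with means of 1857 and 2494, and held 34.7% and 36.6% of its reads. It is annotated as fructokinase-like, a chloroplast protein of the pfkB carbohydrate kinase family, so its enzyme activity is not given by its name. Of the 3 tested genes listed as fructokinases, none passed, and their log2 fold changes were between -0.07 and 0.14. Among them, LEMGIv51_A5_009196_1 is also annotated as 5-dehydro-2-deoxygluconokinase, and LEMGIv51_A5_015922_1 as fructokinase-like 1. The names of these genes do not settle their enzyme activity. The sum over the family was 5345 under INS and 6814 under ONS.

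Glucose-6-phosphate isomerase interconverts glucose and fructose 6-phosphates. The plastid isozyme LEMGIv51_A5_000150_1 received 88.0% of the reads of the family under INS and 82.3% under ONS, with means of 4130.4 and 3173. The 2 cytosolic genes have consecutive numbers and may share reads. LEMGIv51_A5_009447_1 had 129.8, 298 and 394 normalized reads under INS, compared with 401, 225 and 551 under ONS. LEMGIv51_A5_009446_1 had nearly equal means of 292. Neither cytosolic gene passed the test, with 95% intervals of the log2 fold change of -0.37 to 1.503 and -0.74 to 0.66.

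ATP-dependent phosphofructokinase commits fructose 6-phosphate to glycolysis, and none of its 5 genes had means more than 1.5-fold apart. LEMGIv51_A5_001177_1 had means of 1079 and 1183 and held 39.9% of the reads of the family under both conditions. LEMGIv51_A5_005085_1 had the highest log2 fold change among the 4 tested genes, at 0.53 with an SE of 0.31 (limma, adjusted p = 0.382). Its normalized reads were 309, 653 and 665 under INS, compared with 670.3, 631 and 966 under ONS, and INS library 1 alone lay well below the rest. The log2 fold changes of the other 3 tested genes were between -0.13 and 0.31.

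The aldolase reads came mostly from the plastid isozyme LEMGIv51_A5_001529_1, with means of 62765 under INS and 55389.6 under ONS. It ranked 9th of all genes by its mean under INS. The main cytosolic aldolase, LEMGIv51_A5_002427_1, had means of 5515 and 6320 (ratio 1.15), so the 2 cytosolic genes differed in direction. LEMGIv51_A5_011251_1, listed as aldolase but annotated as a dehydrogenase-like protein, had a log2 fold change of -0.05 with an SE of 0.22. Triose-phosphate isomerase, which interconverts the 2 products of aldolase, had a plastid gene with means of 7890 and 7713 (LEMGIv51_A5_004745_1) and a cytosolic gene with means of 6428 and 7325 (LEMGIv51_A5_006037_1).

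GAPDH oxidizes glyceraldehyde 3-phosphate in glycolysis and, as the plastid A and B subunits, works in the reducing direction in carbon fixation. The mean under ONS was higher for 6 of its 7 genes, and for the cytosolic gene LEMGIv51_A5_001746_1 the means were nearly equal at 479.7 and 479.6. Another cytosolic gene close to it by number, LEMGIv51_A5_001748_1, had means of 7301 and 9986, and these may share reads. The B subunit gene LEMGIv51_A5_002839_1 had means of 29730 and 31681 (ratio 1.07). The A subunit genes LEMGIv51_A5_008480_1 and LEMGIv51_A5_008481_1, with consecutive numbers and possibly shared reads, had ratios of 1.46 and 1.30. The NADP-dependent enzyme LEMGIv51_A5_021575_1, which in plants is cytosolic and does not phosphorylate its product, had means of 6214 and 9049 (ratio 1.46). LEMGIv51_A5_008480_1 and LEMGIv51_A5_021575_1 lay just under the 1.5-fold limit, and neither has replicate values. The plastid glycolytic isozyme LEMGIv51_A5_005349_1 (GAPCP2) had 249.5, 439 and 699 normalized reads under INS, compared with 511, 444 and 773 under ONS, and did not pass (limma, adjusted p = 0.579).

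Phosphoglycerate kinase, which makes ATP in glycolysis and uses it in carbon fixation, was dominated by the plastid gene LEMGIv51_A5_005366_1. Its means were 36571 under INS and 48566 under ONS, a ratio of 1.33, and it held 89.5% and 90.6% of the reads of the family. The cytosolic gene LEMGIv51_A5_005369_1, close by its number, had means of 4218 and 4968. The remaining genes had few reads. LEMGIv51_A5_001632_1 had 25.2, 39.0 and 33.6 normalized reads under INS, compared with 52.5, 46.9 and 89.6 under ONS, and all ONS values were above the INS values. Its log2 fold change was 0.89 with an SE of 0.37 (limma, unadjusted p = 0.0365, adjusted p = 0.229). LEMGIv51_A5_016194_1, annotated as 2-phosphoglycerate kinase, a different enzyme, had 16.6, 43.0 and 47.0 normalized reads under INS, compared with 22.4, 21.7 and 24.0 under ONS. INS library 1 lay below all ONS libraries, and the log2 fold change of -0.49 with an SE of 0.46 did not pass.

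Phosphoglycerate mutase moves the phosphate group before the enolase step. The gene LEMGIv51_A5_011509_1, of the cofactor-independent type found in plants, had means of 3769 and 4556 and held 57.9% and 65.2% of the reads of the family. Of the other 4 genes, the AT74-like gene fell as described, and the rest had log2 ratios of the means between -0.23 and 0.35. Enolase, which forms phosphoenolpyruvate (PEP), received 92.4% of its reads under INS from LEMGIv51_A5_003636_1 (Enolase 2), with means of 11890.05 and 16432 (ratio 1.38). The cytosolic enolase LEMGIv51_A5_003302_1 had a similar ratio of 1.32. The plastid enolase LEMGIv51_A5_000442_1 had 203, 254 and 258 normalized reads under INS, compared with 217, 157 and 271 under ONS, with overlap (log2 fold change -0.17, SE 0.27).

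Pyruvate kinase transfers the phosphate of PEP to ADP. It has 10 genes with a row in the table, of which 5 are named plastid and 5 cytosolic. All 5 plastid genes had the higher mean under ONS, with log2 ratios of 0.06 to 0.64 and summed means of 8736 and 10390. Of the 5 cytosolic genes 2 were higher, with sums of 10266 and 10937. The cytosolic gene LEMGIv51_A5_008701_1 had the highest mean of the family, with means of 4874 and 5782 (ratio 1.19), and held 25.6% and 27.1% of its reads. The plastid gene LEMGIv51_A5_010723_1 (isozyme A) had means of 1919.9 and 2983, a ratio of 1.55. The cytosolic gene LEMGIv51_A5_005342_1 was the only tested pyruvate kinase. It had 349.8, 386 and 484 normalized reads under INS, compared with 631, 506 and 812 under ONS, with every ONS library above every INS library. Its log2 fold change was 0.66 with an SE of 0.24 and a 95% interval of 0.14 to 1.19, with an unadjusted p of 0.0183 and an adjusted p of 0.157 (limma). The gene held 2.14% of the reads of the family under INS and 3.05% under ONS.

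Other genes of the pathway were taken from the same reaction table: fructose-1,6-bisphosphatase, the diphosphate-dependent phosphofructokinase (PFP), pyruvate, phosphate dikinase, phosphoglucomutase, sugar transporters and plastid phosphate translocators. Of these 19 genes, 18 had a mean of at least 10. Among the 18, 3 were more than 1.5-fold higher (16.7%) and 1 was more than 1.5-fold lower (5.56%) under ONS. The shares of all genes with a mean of at least 10 were 11.6% and 14.2%. The lower one was LEMGIv51_A5_001996_1, a glucose-6-phosphate/phosphate translocator, which exchanges hexose phosphate across the plastid envelope. Its means were 4616 under INS and 1285 under ONS, 3.59-fold lower, with no values per library. LEMGIv51_A5_019154_1, a beta subunit of PFP, which catalyzes the phosphofructokinase step reversibly with pyrophosphate, had means of 1935 and 3198 (ratio 1.65). The alpha subunit LEMGIv51_A5_021906_1 had a ratio of 1.39. LEMGIv51_A5_013282_1, a cytosolic fructose-1,6-bisphosphatase, the enzyme that bypasses phosphofructokinase towards sucrose, had 154, 205 and 289 normalized reads under INS, compared with 227, 544 and 442 under ONS. The conditions overlapped in ONS library 1, and the log2 fold change of 0.86 with an SE of 0.35 did not pass (limma, adjusted p = 0.215). Of the 6 tested genes of this list, 1 passed without the fold threshold, as did 6.20% of all tested genes. LEMGIv51_A5_018125_1, listed under sugar transport and annotated as a sucrose transporter (SUT2), rose from 14.4, 20.3 and 20.2 normalized reads under INS to 53.0, 46.9 and 46.7 under ONS. Its log2 fold change was 1.38 with an SE of 0.36 (limma, adjusted p = 0.0483), and the adjusted p was 0.0786 to 0.173 when any library was left out. With all libraries it was 0.0161 to 0.0512 over the other settings, and it exceeded 0.05 with no filter on the mean. The hexose transporter genes LEMGIv51_A5_013411_1 and LEMGIv51_A5_005117_1 had ratios of 1.16 and 0.995.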

How the data were processed

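PolyA RNA of *L. gibba* fronds was analysed with 3 INS and 3 ONS libraries, grouped by their titles. The authors aligned their paired-end reads of 101 bp with Bowtie against the transcripts predicted in version 0.5.1 of the draft genome, obtained counts per transcript and normalized them with DESeq size factors (versions are not given in the sources used here). The deposited signal columns are the authors' means of normalized counts over all libraries and per condition. The authors' fold changes, p-values, adjusted p-values and calls in the same table were not used. From the study's reaction table only gene IDs, enzyme names and annotations were taken. The members and lists were chosen with earlier results of these data known.

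The size factors of the 3 libraries in a condition were derived from the lowest means, and then all combinations of whole reads that give each mean under 1000 within its rounding were searched. A gene was kept where each condition had 1 combination, which held for 11203 genes. Where a condition had several, the gene was kept if only 1 pair of combinations also gave the mean over all libraries. On simulated data, 2756 of 2925 genes had 1 combination, and all 2756 were exact. The simulated means were made with the size factors used in the search, so this exactness was fixed in advance. When real means were shifted off their printed values, none of those from 1 to 300 had a combination. Of shifted means from 300 to 1000, 28.3% under INS and 44.3% under ONS still had a combination. Depths were estimated as size factor times the summed means. No count model was fitted, since reads are known for part of the genes only. limma 3.58.1 (R 4.3.3) was run with a mean-variance trend on log2(normalized reads + 1), restricted to means of 10 or more, so fold changes of low genes are understated. Simulated counts for 10286 genes were drawn with the same dispersion of 0.0547 for every gene. At an adjusted p of 0.05 and with no fold threshold, 38.0% of 50 genes changed by 2-fold passed in limma. So did 98.0% of 50 changed by 4-fold and 7 of 10086 unchanged genes. Genes were named where the adjusted p was at most 0.05, where the means differed by more than 1.5-fold, or where they had the highest mean of a family. Further members were named after their values were seen. Means without recovered reads have no error. Python 3.11.15, numpy 2.4.6 and pandas 2.3.3 were used. Alternatives were other pseudocounts, filters, scalings and fold thresholds, no trend, and each library left out. No sequences or transcript lengths were used here.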

Additional observations from a re-analysis of the deposited data

How the results depend on the processing

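The count of called members was 0, and it was 2 without a fold threshold and 2 with more than 2-fold. It was 0 with pseudocounts of 0.5 and 10, no filter or a mean of at least 50, no trend, and upper-quartile scaling, and 0 to 1 when each library was left out. Over all tested genes 282 were called, 638 without a fold threshold, 604 with more than 2-fold, 169 with a pseudocount of 10, 172 with a mean of at least 50, and 226 to 312 with a library left out. The count of members that passed at any fold was recomputed under these settings as a check chosen after seeing the data, and it was 2 under each setting with all libraries present and 0 to 1 with a library left out. With a fold of 2 in place of 1.5 in the condition means, 0 members were higher and 2 were lower. The median log2 ratio of the members was 0.14 to 0.22 over the alternatives, which include a mean of at least 1000, also chosen after seeing the data. No paired analysis was possible because the recovered libraries carry no replicate numbers. The recovery of reads limited the test to 23 members, all with means under 1000. It left out 6 others with means under 1000, whose ONS means fit several combinations of whole reads. At the simulated dispersion, 38.0% of the genes changed by 2-fold passed at an adjusted p of 0.05 without a fold threshold. That share therefore does not apply to the count of called members, which also required more than 4-fold.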
